A study of Mus musculus with 4 samples.

Results

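Endothelial fatty acid uptake was examined in mouse kidney through 10 genes taken by symbol from the 32285 genes of the count files: *Lpl*, *Gpihbp1*, *Cd36*, *Slc27a3*, *Fabp4*, *Fabp5*, *Rbp7*, *Pparg*, *Meox2* and *Tcf15*. All 10 symbols were found. Single-cell RNA-Seq was performed on whole kidneys of male C3H mice, either WT or Sweet Pee (SP) mice, which are homozygous for a missense mutation in *Slc5a2* and make no functional SGLT2, the glucose cotransporter of the proximal tubule. From 10 weeks of age the mice received normal diet (ND) or a high-fat diet (HFD) with 60% of calories from fat for 8 weeks, and kidneys were taken at 18 weeks. There was 1 library for each of the 4 conditions (WT-ND, SP-ND, WT-HFD and SP-HFD), and the number of animals behind a library is not given in the sources used here. With 1 library per condition no difference between conditions has a replicate check and none was tested.

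Circulating triglyceride reaches tissues in lipoproteins. Lipoprotein lipase, the product of *Lpl*, releases fatty acids from them on the capillary wall, where GPIHBP1, a protein anchored on the endothelial surface, carries the enzyme across the cell and holds it on the lumen. CD36 and fatty acid transport proteins help fatty acids into the cell, and small cytosolic carriers of the FABP family move them onwards, so that continuous and fenestrated capillaries form a regulated gate between blood and parenchyma. The nuclear receptor PPARγ is a classical activator of *Fabp4* and *Cd36*, and MEOX2 and TCF15 are known as a pair of transcription factors that drive fatty acid transport genes in heart endothelium.

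The promoters of *Cd36* and *Rbp7* are shown because these genes had the largest differences between diets in WT peritubular endothelium. The sequences are the 250 bases before an annotated start, read on the gene's strand from RefSeq (GRCm38.p6), at chr5:17835897-17836146 (minus strand) and chr4:149454969-149455218 (minus strand). Capitals mark the nuclear receptor half-site AGGTCA, searched on both strands.

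Cd36: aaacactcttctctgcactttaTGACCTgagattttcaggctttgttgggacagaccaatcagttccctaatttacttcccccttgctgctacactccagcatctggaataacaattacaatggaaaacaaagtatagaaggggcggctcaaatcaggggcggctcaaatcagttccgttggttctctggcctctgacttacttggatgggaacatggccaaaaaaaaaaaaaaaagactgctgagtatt

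Rbp7: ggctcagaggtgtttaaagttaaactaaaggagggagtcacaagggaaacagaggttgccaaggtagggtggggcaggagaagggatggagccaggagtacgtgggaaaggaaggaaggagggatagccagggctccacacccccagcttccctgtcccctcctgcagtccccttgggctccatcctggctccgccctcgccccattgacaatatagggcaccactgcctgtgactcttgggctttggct

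*Cd36* held 1 half-site, on the opposite strand 228 bases before the start, and the *Rbp7* window held 0. Of 32851 mouse promoters of the same length, 14% held the half-site and 0.0335% held the repeat AGGTCANAGGTCA, whose half-sites are also matches of the first search. Promoter entries were present for 5 of the members, and the repeat was in none of their 7 promoters.

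After filtering, 32280 cells were kept, 6389 to 9924 per library, out of 90728590 to 115117649 UMIs (unique molecular identifiers, each counted as 1 captured transcript) per library. Pairs of libraries shared 54 to 77 cell barcodes. Clustering, with all 10 genes and 51 related pathway genes left out of the features, gave a glomerular endothelial class of 922 cells (305 in WT-ND, 209 in WT-HFD, and for SP 140 on ND and 268 on HFD) and a peritubular capillary endothelial class of 803 cells (194, 138, 241 and 230 in the same order). *Ehd3*, which marks glomerular endothelium, was at 2181 to 2650 UMIs per 1000000 UMIs of the class (CPM) in the glomerular class and 165 to 242 CPM in the peritubular class, and *Plvap*, a component of the diaphragms of fenestrated capillaries, was at 7.71 to 33.9 CPM and 2069 to 2292 CPM. Summed proximal tubule markers stood at 1.19% of peritubular UMIs in WT-ND and 0.202% to 0.274% in the other libraries, and at 0.593% against 0.101% to 0.168% in the glomerular class. Their part in the results was not tested. Median UMIs per peritubular cell ran from 1719 in WT-ND to 3296 in WT-HFD. Intervals in brackets are 95% intervals that cover counting error only, exact Poisson for a level and exact conditional binomial for a ratio.

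Of the glomerular and peritubular classes, the peritubular one held more of 7 of the 10 genes. *Fabp4*, *Fabp5*, *Cd36*, *Gpihbp1*, *Rbp7*, *Pparg* and *Tcf15* were higher in the peritubular than in the glomerular class in 4 of 4 libraries, *Lpl* was higher in 2 of 4, *Slc27a3* in 1 of 4, and *Meox2* was counted in 1 peritubular library and 0 glomerular ones. For *Fabp4* the gap was log2 4.68, 5.84, 4.55 and 6.17 for ND and HFD in WT and then in SP. These classes come from clustering the same cells, so the contrast between them is a description.

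**Figure D1:**
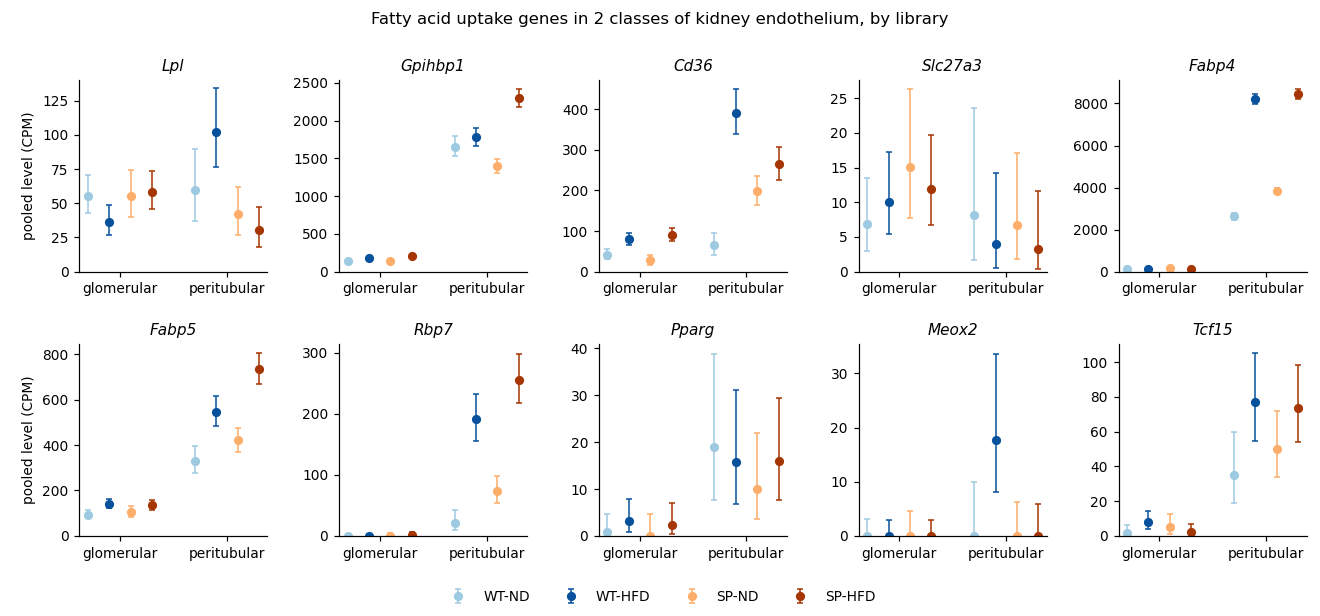
Pooled level (CPM) of each of the 10 genes in glomerular and peritubular endothelium, 1 point per library, with exact Poisson 95% intervals as bars, on linear axes from 0 that differ between panels. *Fabp4* reached 8199 and 8452 CPM in the peritubular class of the HFD libraries and stayed between 103 and 165 CPM in the glomerular class.

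Of the lipase platform, *Gpihbp1* (chr15:75596628-75599481, plus strand, GRCm38) was within 1.5-fold between diets in WT as a class and higher on HFD in SP. Its peritubular level was 1657 CPM in WT-ND, 1780 CPM in WT-HFD, 1400 CPM in SP-ND and 2300 CPM in SP-HFD. Log2 HFD over ND was 0.10 [-0.05 to 0.25] in WT, against 0.72 [0.59 to 0.84] in SP. The class was made up of endothelial subclusters 0 and 8, and its WT value joined opposite differences, from 1835 CPM on ND to 1126 CPM on HFD in subcluster 0 (log2 -0.70 [-0.98 to -0.43]) and from 1361 to 2011 CPM in subcluster 8 (0.56 [0.33 to 0.80]). In SP both subclusters were higher on HFD, at 0.55 and 0.97. In the glomerular class it stood at 135, 175, 142 and 205 CPM in the same order.

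*Lpl* (chr8:68880491-68907448, plus strand) was low in endothelium. Peritubular levels were 59.4 CPM in WT-ND, 102 CPM in WT-HFD, 41.9 CPM in SP-ND and 30.4 CPM in SP-HFD, from 19 to 52 UMIs. The WT-HFD value rested on 1 cell, which held 25 of the 52 UMIs, and without the cell of most UMIs in each library the HFD over ND ratio in WT was 1.00-fold. T cells, which should lack the gene, held 15.5 CPM in WT-HFD to 80.1 CPM in WT-ND, and less on HFD than on ND in both genotypes. That range took in every peritubular level but WT-HFD and every glomerular level. Endothelial subcluster 14, outside the class, stood at 445 CPM in WT-HFD and 10.7 to 60.2 CPM in the other libraries. The part of free RNA in these levels was not tested. Grouping the cells without integration of the libraries turned the WT ratio to log2 -1.36 and the SP over WT ratio on HFD from -1.75 to 0.23. Glomerular levels were 55.7, 36.5, 55.3 and 58.3 CPM.

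*Cd36* (chr5:17781690-17888801, minus strand), the fatty acid translocase, differed between libraries in the peritubular class. Its peritubular level was 64.8 CPM [41.5 to 96.3] in WT-ND, 392 CPM [339 to 450] in WT-HFD, 198 CPM [164 to 237] in SP-ND and 264 CPM [225 to 308] in SP-HFD. WT-ND was the lowest library and WT-HFD the highest, with both SP libraries between them. Log2 HFD over ND was 2.60 [1.98 to 3.27] in WT, against 0.42 [0.07 to 0.77] in SP, and on ND the SP library was 3.05-fold above WT. A single WT-HFD cell carried 94 of that library's 199 *Cd36* UMIs, and leaving out the cell of most UMIs in each library brought WT-HFD to 212 CPM and the WT ratio to 3.55-fold. SP-HFD, at 244 CPM, was then the highest library, and SP over WT on HFD turned from log2 -0.57 [-0.88 to -0.26] to 0.21. Grouping the cells without integration brought the WT diet ratio to log2 1.04 and SP over WT on HFD to 1.12. The share of peritubular cells with a *Cd36* UMI, after thinning each cell to 1000 UMIs, was 6.98% [3.66 to 11.9], 13.97% [8.63 to 20.9], 10.7% [7.07 to 15.4] and 14.5% [10.2 to 19.7] (exact Clopper-Pearson), against 10.8%, 20.3%, 14.5% and 24.8% without thinning. In T cells 0.926% to 4.15% held one after thinning. Endothelial subcluster 14, outside the class, stood at 999 CPM of *Cd36* in WT-HFD and 151 to 358 CPM in the other libraries.

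In glomerular endothelium *Cd36* was lower, and it was higher on HFD in both genotypes. The levels were 42.0 CPM in WT-ND, 79.2 CPM in WT-HFD, 27.6 CPM in SP-ND and 90.2 CPM in SP-HFD, so both HFD libraries lay above both ND libraries. Log2 HFD over ND was 0.92 [0.41 to 1.44] in WT, against 1.71 [1.04 to 2.44] in SP. No single cell held more than 10 of these UMIs.

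*Slc27a3* (chr3:90385239-90389938, minus strand), of the fatty acid transport protein family, was scarce in both capillary classes at this depth, with 2 to 4 UMIs per library in the peritubular class and 8 to 15 in the glomerular class. Its highest median among the 16 classes ranked was in podocytes. The ranking left out fibroblast, erythroid and lymphatic endothelial cells. It also left out 1337 endothelial cells and 1751 other cells that took no class name. Podocyte levels were 20.1 to 23.7 CPM in the 4 libraries. Endothelial subcluster 1, which took no class name (358 cells led by *Thbs2* and *Tgfb2*), held more, at 40.2 to 57.3 CPM.

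*Fabp4* (chr3:10204088-10208576, minus strand), the adipocyte and capillary fatty acid carrier, was the most abundant of the 10 genes. In peritubular endothelium it was at 2628 CPM [2465 to 2798] in WT-ND, 8199 CPM [7951 to 8452] in WT-HFD, 3841 CPM [3685 to 4001] in SP-ND and 8452 CPM [8225 to 8683] in SP-HFD. Both HFD libraries lay above both ND libraries. Log2 HFD over ND was 1.64 [1.54 to 1.74] in WT, against 1.14 [1.07 to 1.21] in SP, and on HFD the genotypes differed by log2 0.04 [-0.02 to 0.10]. The WT-HFD cell that held most *Cd36* also held 773 of that library's 4163 *Fabp4* UMIs. Without the cell of most *Fabp4* UMIs in each library, WT-HFD was at 6829 CPM. The diet ratio was then log2 1.44 in WT and 1.185 in SP, and SP over WT on HFD was 0.248.

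Per-cell *Fabp4* differed at the median and the lower quartile as well as in the pooled level. The median peritubular cell held 12.5 *Fabp4* UMIs per 10000 in WT-ND and 11.96 in SP-ND, against 38.6 in WT-HFD and 56.8 in SP-HFD. The lower quartile went from 0 on ND in both genotypes to 17.4 in WT-HFD and 21.99 in SP-HFD. After thinning to 1000 UMIs, 66.3% and 62.2% of cells held a *Fabp4* UMI on ND in WT and SP and 80.9% and 87.7% on HFD, against 0.699% to 2.78% of T cells. The adipocyte markers *Adipoq*, *Cfd*, *Lep*, *Retn* and *Acvr1c* were at 0 in both endothelial classes in every library, and *Car3*, the remaining one of the 6, gave 0 to 9.85 CPM.

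*Fabp5* (chr3:10012548-10016607, plus strand), a related carrier 187480 bases from *Fabp4* with 4 protein-coding genes between them, followed the same order at a lower level. It was at 332 CPM in WT-ND, 548 CPM in WT-HFD, 420 CPM in SP-ND and 736 CPM in SP-HFD. Log2 HFD over ND was 0.72 [0.41 to 1.04] in WT, against 0.81 [0.58 to 1.04] in SP.

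*Rbp7* (chr4:149449687-149454978, minus strand), a cellular retinol-binding protein of the same fold as the FABPs, was found in few peritubular cells and, among the other classes ranked, mainly in arterial endothelium. Its level was 21.6 CPM [9.32 to 42.5] in WT-ND, 191 CPM [155 to 233] in WT-HFD, 73.7 CPM [53.5 to 98.9] in SP-ND and 256 CPM [218 to 299] in SP-HFD. The HFD libraries were again the highest, at log2 3.15 [2.11 to 4.40] over ND in WT and 1.80 [1.31 to 2.31] in SP. Cells with an *Rbp7* UMI numbered 5, 16, 13 and 32, and 94.4% to 100% of the UMIs lay in the top 10% of cells. The glomerular class held 2 *Rbp7* UMIs in all, both in SP-HFD. Outside the ranked classes, WT-HFD held 222 *Rbp7* UMIs in endothelial subcluster 14 (1412 CPM) and 350 in subcluster 1 (953 CPM). The peritubular class of that library held 97. Subcluster 14 was at 0 to 204 CPM in the other libraries. Grouping endothelial cells by *Ehd3* and *Plvap* UMIs instead turned SP over WT on HFD from log2 0.42 to -1.24, so the place of SP-HFD as the highest library depended on the grouping.

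**Figure D2:**
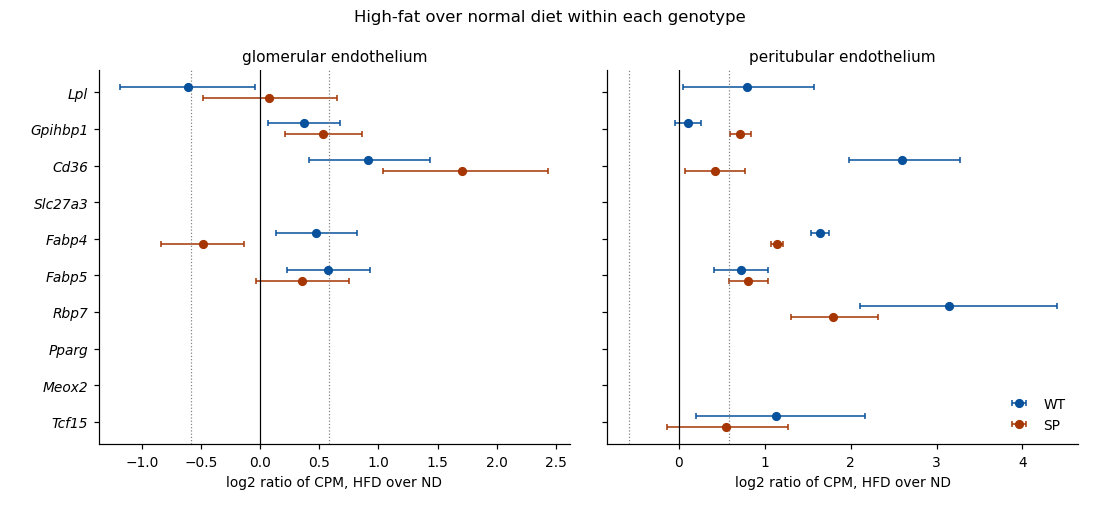
Log2 ratio of CPM, HFD over ND, for each gene with at least 50 UMIs over both libraries, in WT and SP and in glomerular (left) and peritubular (right) endothelium, with exact conditional binomial 95% intervals as bars and dotted lines at 1.5-fold. In the peritubular class *Fabp4*, *Fabp5* and *Rbp7* lay beyond 1.5-fold in both genotypes, whereas *Fabp4* in the glomerular class was at 0.48 in WT and -0.49 in SP.

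The transcription factors were scarce. *Pparg* (chr6:115360951-115490399, plus strand) gave 6 to 10 peritubular UMIs per library, at 18.9 CPM in WT-ND, 15.8 CPM in WT-HFD, 10.0 CPM in SP-ND and 16.0 CPM in SP-HFD, and these levels lay within each other's counting intervals. *Tcf15* (chr2:152143561-152149097, plus strand) was at 35.1 CPM, 76.8 CPM, 50.2 CPM and 73.6 CPM in the same order, log2 1.13 [0.19 to 2.16] HFD over ND in WT and 0.55 [-0.14 to 1.27] in SP. *Meox2* (chr12:37108540-37179534, plus strand) was at 0 in the peritubular class of 3 libraries and gave 9 UMIs in WT-HFD, 5 of them in the cell that held most *Cd36*. For a count of 0 a floor of 3 counts was set, or 8.09 CPM in WT-ND. This floor is a chosen value and not the upper end of a bracketed interval. *Pparg* overlaps the antisense gene *Gm44079* and *Meox2* holds the intronic gene *Gm48617*, both counted, so their values are uncertain where reads could be shared.

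Read over all 10 genes, 7 had at least 50 UMIs over both WT libraries in the peritubular class, and 6 of them were higher past 1.5-fold on HFD (*Fabp4*, *Fabp5*, *Cd36*, *Lpl*, *Rbp7* and *Tcf15*) and 0 lower. The *Lpl* call rested on the single WT-HFD cell described above. Over all features, 10.9% of the 2795 genes counted were higher and 6.44% lower. In SP, 4 of 6 were higher (*Fabp4*, *Fabp5*, *Gpihbp1* and *Rbp7*) and 0 lower, where 6.13% of 3752 genes were higher and 8.69% lower. The median log2 ratio of the members was 1.13 in WT and 0.76 in SP, against 0.11 and -0.04 over all genes counted. Between genotypes on ND, *Cd36* and *Rbp7* were higher in SP, 2 of 5 members against 10.3% of all genes, and 0 were lower, against 5.45%. On HFD 1 of 7, *Lpl*, was lower in SP, against 5.81% of genes, and 0 were higher, against 3.60%. In the glomerular class only *Cd36* was higher on HFD in WT and in SP, 1 of 5 members each time beside 6.11% and 6.31% of genes, and *Lpl* was lower in WT, beside 5.85%, and 0 were lower in SP, beside 7.44%. Of 5 glomerular members on ND, *Fabp4* was higher in SP (5.66% of genes) and *Cd36* lower (4.47%), the latter with an interval that spanned 0. On HFD *Lpl* was higher in SP (2.92%) and 0 were lower (3.21%). The comparisons of diet and genotype share libraries and are not independent of each other.

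Cells with an *Rbp7* UMI stood apart from the other peritubular cells in other uptake genes too. Pooled *Fabp4* in them was 10443 CPM in WT-ND, 21484 CPM in WT-HFD, 23102 CPM in SP-ND and 22518 CPM in SP-HFD, against 2356, 5619, 2580 and 6403 CPM in the cells without one. *Cd36* was at 321, 1962, 1689 and 1221 CPM against 55.8, 87.02, 99.9 and 125 CPM. The WT-HFD value drew 94 of its 162 *Cd36* UMIs from 1 cell, and without the cell of most *Cd36* in each library the cells with *Rbp7* stood at 198, 954, 1458 and 1096 CPM of *Cd36* and 9816, 14049, 22560 and 20282 CPM of *Fabp4*. *Fabp4* was also higher on HFD among the cells without *Rbp7*, in both genotypes. Median UMIs per cell were 2208 to 3424 with *Rbp7* and 1708 to 3296 without. *Gpihbp1* was lower in the cells with *Rbp7* in both WT libraries and higher in both SP libraries.

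**Figure D3:**
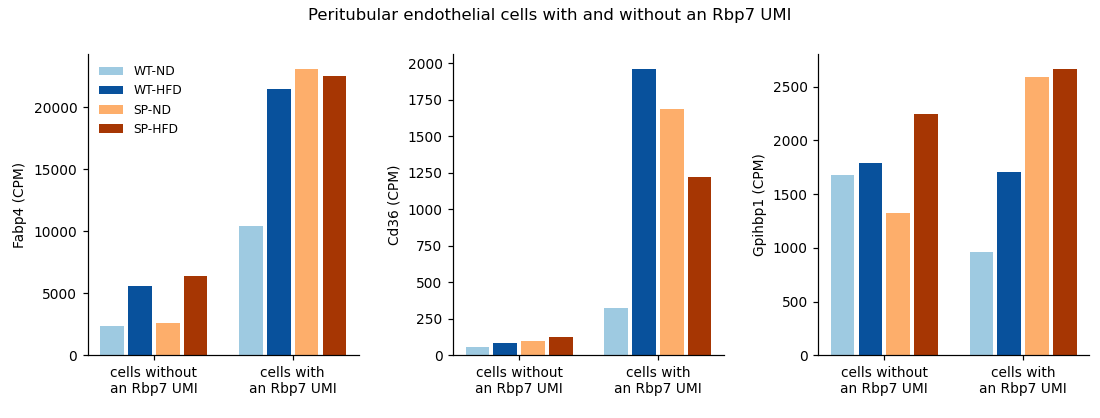
Pooled level (CPM) of *Fabp4*, *Cd36* and *Gpihbp1* in peritubular endothelial cells without and with an *Rbp7* UMI, 1 bar per library, axes from 0. Cells with *Rbp7* (5, 16, 13 and 32 cells for ND and HFD in WT and then in SP) held more *Fabp4* and *Cd36* in every library, and 94 of the 162 *Cd36* UMIs of the WT-HFD bar came from 1 cell.

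The other genes also differed between the subclusters of the peritubular class (cluster numbers carry no order). In subcluster 0 *Fabp4* was at 2679 CPM on ND and 5834 CPM on HFD in WT and at 4167 and 8170 CPM in SP. In subcluster 8 it was at 2543 and 9032 CPM in WT and at 3392 and 8878 CPM in SP. The WT difference in *Rbp7* lay in subcluster 8, at 14.3 CPM on ND and 248 CPM on HFD, while subcluster 0 held 26.0 and 30.2 CPM. *Cd36* in WT went from 69.3 to 159 CPM in subcluster 0 and from 57.3 to 474 CPM in subcluster 8. Subcluster 8 was 56 of 194 peritubular cells in WT-ND and 90 of 138 in WT-HFD.

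Among endothelial subclusters with at least 15 cells in every library, the highest *Fabp4* lay outside the named classes, in subcluster 11 (203 cells led by *Serpina1e*, *Cryab* and *Igf1*), with 10086 CPM in WT-ND, 18676 CPM in WT-HFD, 12361 CPM in SP-ND and 20316 CPM in SP-HFD. Its markers scored nearest to peritubular endothelium, too weakly for a class name. *Plvap* in subcluster 11 was at 2550, 3668, 2976 and 3590 CPM in the same order, above the 2069 to 2292 CPM of the peritubular class. *Fabp5* there was at 1001, 2876, 1661 and 3305 CPM. Subcluster 14, 128 cells led by the proliferation genes *Mki67* and *Top2a*, came next, at 6717, 16954, 7464 and 13069 CPM of *Fabp4*. Of 12 endothelial subclusters with at least 15 cells in every library, *Fabp4* was higher on HFD in 11 in WT and in 11 in SP, past 1.5-fold in 10 and 9. The exceptions were glomerular subclusters, 5 in WT and 2 in SP.

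**Figure D4:**
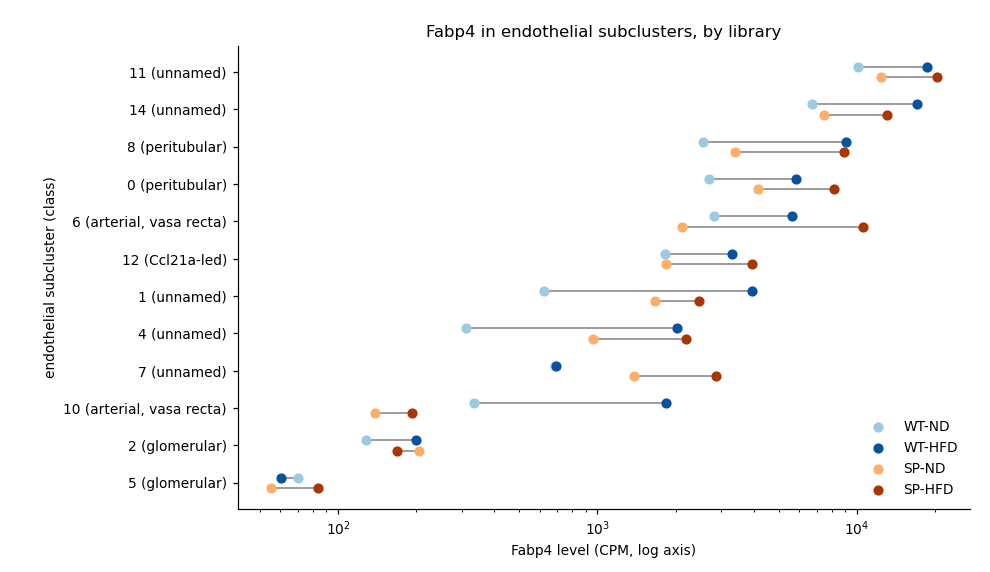
*Fabp4* level (CPM, log axis) in 12 endothelial subclusters, with grey lines joining the ND and HFD libraries of a genotype, and the class name of each subcluster on the vertical axis. *Fabp4* spans from 55.2 CPM in glomerular subcluster 5 to 20316 CPM in subcluster 11, and most lines run to the right from ND to HFD.

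Arterial and vasa recta endothelium (77 to 145 cells per library) held *Fabp4* at 1843 CPM in WT-ND, 4175 CPM in WT-HFD, 1464 CPM in SP-ND and 7244 CPM in SP-HFD. HFD over ND was 2.27-fold in WT and 4.95-fold in SP, and of the members counted 2 of 3 in WT (9.12% of all genes) and 4 of 5 in SP (7.86%) were higher past 1.5-fold. *Rbp7* followed at 8.61, 74.1, 19.3 and 98.02 CPM. *Gpihbp1* was at 106 to 121 CPM in 3 libraries and 308 CPM in SP-HFD. *Pparg* was at 34.4 to 54.0 CPM there, above every peritubular library. The class joined endothelial subclusters 6 and 10. *Fabp4* HFD over ND was 1.99-fold in WT and 4.99-fold in SP in subcluster 6, and 5.54-fold and 1.39-fold in subcluster 10. *Rbp7* in WT went from 10.7 to 17.1 CPM in subcluster 6 and from 5.47 to 167 CPM in subcluster 10. In SP it went from 20.9 to 131 CPM and from 16.1 to 27.7 CPM. Subcluster 6 was 56 of 91 arterial cells in SP-ND and 108 of 145 in SP-HFD.

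Macrophages held less *Fabp4*, *Cd36* and *Pparg* than monocytes or dendritic cells, and more *Lpl*. *Lpl* in macrophages was at 135 CPM in WT-ND, 97.0 CPM in WT-HFD, 152 CPM in SP-ND and 116 CPM in SP-HFD, lower on HFD in both genotypes but within 1.5-fold. T-cell *Lpl* was also lower on HFD in both genotypes, in WT from 80.1 to 15.5 CPM. The part of free RNA in the macrophage values was not tested. Macrophage *Cd36* was at 43.1 to 54.1 CPM, *Pparg* at 13.2 to 22.5 CPM and *Fabp4* at 9.48 to 36.1 CPM, near the 5.95 to 24.7 CPM of T cells. In WT 1 of 4 members counted, *Fabp5*, was higher on HFD past 1.5-fold (7.59% of all genes), with an interval that spanned 0. In the monocyte or dendritic class *Fabp4* was at 143 to 281 CPM, *Cd36* at 128 to 210 CPM and *Pparg* at 29.2 to 57.2 CPM.

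Tubule epithelium held most of the *Lpl* in the kidney. Levels were 736, 514, 786 and 628 CPM in the distal convoluted or connecting tubule and 750.5, 550, 620.0 and 578 CPM in the thick ascending limb (ND and HFD in WT, then in SP), overlapping ranges that both lay above the proximal tubule, at 315, 185, 294 and 215 CPM. *Lpl* was lower on HFD in all 3 segments in both genotypes, and past 1.5-fold only in the WT proximal tubule, at log2 -0.77 [-0.83 to -0.71], where 5.74% of genes were lower. The SP proximal tubule was at -0.45 [-0.53 to -0.36]. The proximal tubule class, 1171 cells in WT-HFD, left out clusters that took no class name. An unnamed cluster led by *Hsd11b1* and *Ccl28* held 895 WT-HFD cells of 915. Without integration, an unnamed cluster led by *Car3* and *Ccl28* held 2773 WT-HFD cells of 2840 and scored nearest to proximal tubule. Their part in the proximal tubule ratios was not tested.

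*Cd36* in the proximal tubule, at 264 CPM in WT-ND, 317 CPM in WT-HFD, 207 CPM in SP-ND and 303 CPM in SP-HFD, overlapped the peritubular range and was within 1.5-fold between diets. Proximal tubule *Pparg* was low and higher on HFD in both genotypes, from 5.67 to 10.1 CPM in WT and from 4.83 to 8.82 CPM in SP (9.32% and 9.70% of genes were higher past 1.5-fold). Of the members counted there, 4 of 6 in WT (*Fabp4*, *Fabp5*, *Rbp7* and *Pparg*) and 3 of 5 in SP (*Fabp4*, *Fabp5* and *Pparg*) were higher past 1.5-fold. *Fabp4* in proximal tubule cells went from 1.02 to 22.04 CPM in WT and from 1.48 to 5.32 CPM in SP. Grouping the cells without integration brought the WT ratio from log2 4.43 to 1.095. Summed endothelial markers in the proximal tubule class moved with *Fabp4*, at 0.000944%, 0.00310%, 0.000974% and 0.00160% of UMIs for ND and HFD in WT and then in SP. Per 100 endothelial marker UMIs the proximal tubule held 10.8, 71.2, 15.2 and 33.3 *Fabp4* UMIs, against 30.4, 80.6, 36.1 and 83.4 in the peritubular class. For *Fabp5* the same ratio was 40.4 to 76.4 in the proximal tubule and 3.84 to 7.27 in the peritubular class. The part of carried-over endothelial RNA in these tubule levels was not tested.

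**Figure D5:**
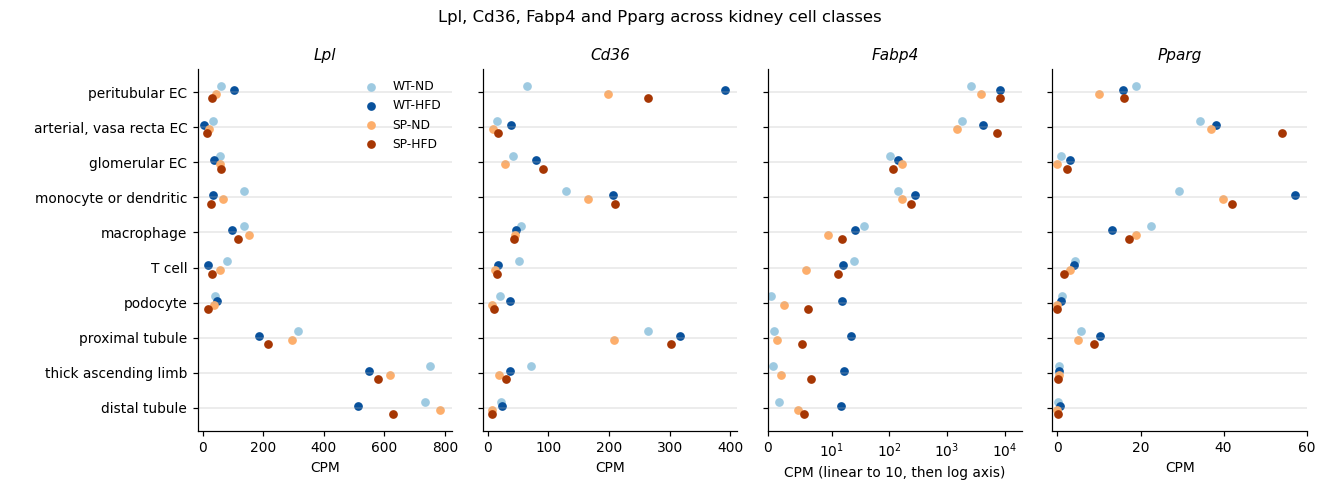
Level (CPM) of *Lpl*, *Cd36*, *Fabp4* and *Pparg* in 10 cell classes, 1 point per library, with the *Fabp4* axis linear to 10 CPM and logarithmic above. *Lpl* is highest in the thick ascending limb and distal tubule, *Cd36* in proximal tubule and peritubular endothelium, *Fabp4* in peritubular and arterial endothelium, and *Pparg* in monocytes or dendritic cells and arterial endothelium.

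In the wider pathway 51 further genes were read, of which 18 had at least 50 peritubular UMIs over both WT libraries and 17 over both SP libraries. In WT 6 of 18 were higher on HFD past 1.5-fold and 1 lower, beside 10.9% and 6.44% of all genes, and in SP 1 of 17 was higher and 2 lower, beside 6.13% and 8.69%. Of the caveolar coat, 3 of 5 members were higher in WT and 0 of 4 counted in SP. In WT these were *Cav1* from 116 to 205 CPM, *Cavin1* from 40.5 to 80.8 CPM and *Cavin2* from 83.6 to 262 CPM. *Plin2*, which coats lipid droplets, went from 54.0 to 118 CPM in WT and from 46.9 to 118 CPM in SP, and was the sole pathway gene higher on HFD past 1.5-fold in both genotypes. *Mgll*, monoglyceride lipase, went from 375 to 579 CPM in WT, and *Scarb1*, the HDL receptor, from 80.9 to 124 CPM. The gene that was lower in WT was *Slc27a2*, a fatty acid transport protein of proximal tubule, from 437 to 124 CPM, alongside the lower share of proximal tubule markers in WT-HFD given above, whose part in this value was not tested. In SP *Aplnr*, the apelin receptor, and *Fabp1*, the liver and proximal tubule carrier, were lower. The VEGF-B receptor *Flt1* (1730 to 2433 CPM) and the Notch ligand *Dll4* (164 to 189 CPM) were within 1.5-fold between diets in both genotypes. In the glomerular class 0 of the counted pathway genes were higher on HFD in either genotype, of 21 in WT and 22 in SP.

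Across 64 class and library levels and 7974 genes, the gene whose log2(CPM + 1) was most like *Fabp4* was *Gpr4* (Pearson r 0.88), followed by *Cd34* and *Gja1*. *Gpihbp1* was nearest to *Flt4* (0.94), *Rbp7* to *Igfbp3* (0.89) and *Tcf15* to *Clec14a* (0.92). These points share libraries and are mostly a contrast between endothelial and other classes. *Lpl* was nearest to the mitochondrial transcripts *mt-Nd3*, *mt-Nd4l* and *mt-Nd4* (0.74 to 0.75).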

How the data were processed

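The authors counted reads with Cell Ranger and deposited raw UMI counts per gene and cell barcode, with no normalization. The file headers give Cell Ranger 6.1.2, the submitters' processing notes give Cell Ranger 2.1.1 and build mm10, and the methods of the study name another version. Every barcode held at least 500 UMIs. The labels name the diet only for the HFD libraries, and ND for the others follows from the design text. Cells with 200 to 5000 genes and under 50% mitochondrial UMIs were kept, and doublets were removed in each library by a simulated-doublet neighbour score at 0.8% per 1000 cells, after clustering, in place of the study's caller. Cells were integrated and clustered in Seurat 5.3.0 (CCA, 50 dimensions, resolution 0.5) and endothelial cells were clustered again (scanpy 1.11.5). Classes were named from marker genes. The 10 genes, the 51 pathway genes and the markers were chosen with earlier results of these data known. All 10 genes are reported, with pathway genes past 1.5-fold between diets in the peritubular class or at the highest levels. Of the 3 genes most like a member, all are named for *Fabp4* and *Lpl*. Only the nearest is named for *Gpihbp1*, *Rbp7* and *Tcf15*, and none for the other members. Subclusters, cells with *Rbp7* and single cells were singled out after their values were seen. Counts were pooled per class and library as CPM. A ratio was counted with at least 50 UMIs over both libraries. No test was made, because each condition has 1 library. PCR duplicates are collapsed by UMI, and intervals cover counting error only. The ratio script was tested on simulated data. Other filters, CPM without mitochondrial genes, cell means, ambient subtraction, a marker gate and clustering without integration were tried.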

Additional observations from a re-analysis of the deposited data

Results flagged for a closer look

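Pooled *Fabp4* in glomerular endothelium moved in opposite directions with diet in the genotypes, at log2 0.475 HFD over ND in WT and -0.488 in SP. Both counting intervals lay beyond 0. The levels were 103 CPM in WT-ND, 143 CPM in WT-HFD, 165 CPM in SP-ND and 117 CPM in SP-HFD. The upper quartile of glomerular cells held 0 in every library, and 84.0% to 92.4% of the *Fabp4* UMIs lay in the top 10% of cells. *Plvap* in this class was at 7.71, 14.8, 33.9 and 17.6 CPM in the same order. The part of cells with *Plvap* in these *Fabp4* levels was not tested. A single WT-HFD cell held 35 of that library's 184 UMIs. Without the cell of most UMIs in each library the ratios were 0.334 in WT and -0.448 in SP. Over the alternative settings the ratio ran from 0.18 to 0.83 in WT and from -0.86 to -0.34 in SP. Within glomerular subcluster 2 the ratios were 0.64 [0.24 to 1.04] in WT and -0.29 [-0.71 to 0.13] in SP. Within subcluster 5 they were -0.21 [-0.94 to 0.52] and 0.60 [-0.31 to 1.625]. Subcluster 2, which held more *Fabp4*, was 75 of 140 glomerular cells in SP-ND and 60 of 268 in SP-HFD. *Cd36* in the thick ascending limb was lower on HFD in WT (log2 -0.944) and higher in SP (0.688), from levels of 71.2 and 37.0 CPM on ND and HFD in WT and 18.3 and 29.4 CPM in SP. Summed proximal tubule markers there were at 0.459% and 0.366% of UMIs on ND and HFD in WT and 0.0691% and 0.120% in SP. The part of carried-over proximal tubule RNA in these *Cd36* levels was not tested. The difference between the genotypes was not tested in either case, since each condition has 1 library.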

How the results depend on the processing

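No paired analysis was possible because each condition has 1 library. Counts below are of ratios past 1.5-fold over the glomerular and peritubular classes. In the main setting 5 glomerular members were counted in each comparison. Peritubular members counted were 7 for diet in WT, 6 for diet in SP, 5 between genotypes on ND and 7 on HFD. The shares of all genes in that setting are given above. Alternatives can change which members reach the UMI minimum. Their numbers counted and shares of all genes are not given here, so a changed count is not by itself a changed result. HFD over ND in WT gave 8 such ratios, and 5 with peritubular subcluster 0 alone. HFD over ND in SP gave 5, and 8 with a gate on *Ehd3* and *Plvap* UMIs and 3 with subcluster 0 alone. SP over WT on ND gave 4, and 8 with subclusters 11 and 14 added to the peritubular class. SP over WT on HFD gave 2, and 4 with the mean over cells, 5 with subclusters 11 and 14, 5 with subcluster 0 alone and 1 without the cell of most UMIs of each gene, where *Lpl* no longer reached 50 UMIs. The subcluster and single-cell alternatives, and scaling to endothelial marker UMIs, were chosen after seeing the data. The number of genes higher in the peritubular class in every library was 7, and 7 or 8 under each alternative. The next counts add a chosen set of diet ratios, read under 6 or 7 alternatives rather than 12 or 13. These were arterial *Fabp4* and *Rbp7*, and proximal tubule *Lpl*, *Cd36*, *Fabp4*, *Pparg* and *Fabp5*. Other arterial and proximal tubule ratios past 1.5-fold were not read, such as arterial *Gpihbp1* in SP and proximal tubule *Rbp7* in WT. Arterial subclusters 6 and 10 were not read alone. Of the 22 ratios read that were past 1.5-fold in glomerular, peritubular and arterial endothelium, 20 kept their sign in every alternative. Of the 22, 10 stayed past 1.5-fold. The 10 took in each arterial ratio read, *Fabp4* in both genotypes and *Rbp7* in SP. With proximal tubule, of the 29 ratios read that were past 1.5-fold, 26 kept their sign in every alternative and 15 stayed past 1.5-fold. Those that reversed were peritubular *Lpl*, HFD over ND in WT at log2 -1.36 without integration and -0.90 in subcluster 0, and SP over WT on HFD at 0.23 and 0.30, and proximal tubule *Fabp4*, HFD over ND in SP at -0.041 with doublets kept. The cause was not tested. Peritubular *Fabp4*, HFD over ND, ranged from log2 1.12 to 1.83 in WT and from 0.70 to 1.39 in SP, *Cd36* in WT from 1.04 to 3.05, and *Rbp7* in WT from 0.22 in subcluster 0 to 5.42. With 370631 to 624835 UMIs per library in the peritubular class, *Pparg*, *Meox2* and *Slc27a3* were too shallow for a ratio.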

Other observations

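Podocytes, which border the glomerular capillaries, held *Fabp5* at 17.1 CPM in WT-ND, 40.7 CPM in WT-HFD, 11.5 CPM in SP-ND and 33.7 CPM in SP-HFD, so both HFD libraries lay above both ND libraries. *Lpl* in podocytes was at 39.3, 47.4, 35.6 and 16.6 CPM in the same order. In the monocyte or dendritic class *Lpl* was at 134 CPM in WT-ND and 34.3 CPM in WT-HFD, log2 -1.97 [-2.79 to -1.19] for counting error only. T cells, which should lack *Lpl*, also went from 80.1 to 15.5 CPM between these libraries. Summed proximal tubule markers in the monocyte or dendritic class were at 0.755% of UMIs in WT-ND and 0.174% in WT-HFD. The part of free RNA in this difference was not tested.

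*Fabp4* in endothelial subcluster 1 (led by *Thbs2* and *Tgfb2*) was at 620 CPM in WT-ND, 3930 CPM in WT-HFD, 1671 CPM in SP-ND and 2451 CPM in SP-HFD, and *Rbp7* there was at 953 CPM in WT-HFD and 4.45 to 77.0 CPM in the other libraries.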
